A study of Mus musculus with 10 samples.

Results

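The 2467 chromatin regions described here opened within 4 hours of forskolin, were still open after 1 and 3 days of it, and were not opened by 3 days of rosiglitazone in the group means. They were chosen from 122984 ATAC-seq peaks of mouse adipocytes, of which they make up 2.01%. Each peak's counts were divided by the library's total and given as CPM, the usual scaling of counts to library depth, and 0.25 was added to group means before ratios. A peak was taken if its mean was at least 2 times control at 4 hours, at 1 day and at 3 days, if its 4-hour mean was at least 2 CPM, and if all 6 forskolin libraries exceeded both controls. In addition its rosiglitazone mean had to lie below 1.25 times control. The selection thus used all 10 libraries, so levels and ratios against control are given as a description and were not tested. In the text below these regions are called the lasting forskolin-only peaks.

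Forskolin activates adenylyl cyclase, which makes cAMP, the messenger through which adrenergic signals reach adipocytes. cAMP activates protein kinase A, which drives lipolysis and phosphorylates transcription factors of the CREB family. Phosphodiesterases break cAMP down again, and several of their genes are themselves switched on by cAMP. Rosiglitazone is an agonist of PPARγ, the nuclear receptor that directs fat cell differentiation. Chromatin that opens away from promoters commonly marks enhancers, which are bound by transcription factors such as AP-1 (dimers of Jun and Fos proteins), C/EBP proteins and nuclear receptors.

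The cells were MAP adipocytes, made in culture from a single immortalized line of mouse adipocyte progenitors. Before treatment all groups had been differentiated with insulin, the phosphodiesterase inhibitor isobutylmethylxanthine, dexamethasone and 1 µM rosiglitazone, so the controls had also met rosiglitazone and a cAMP-raising agent. Vehicle (Control), forskolin for 4 hours (FSK4h), 1 day (FSK1D) or 3 days (FSK3D), or rosiglitazone for 3 days (Rosi3D) was given to the differentiated cells at day 7 to 8, with 2 libraries in each of the 5 groups. Each library started from 10000 sorted nuclei. The count columns carry running numbers: S1 and S2 are Control, S3 and S4 FSK4h, S5 and S6 FSK1D, S7 and S8 FSK3D, and S9 and S10 Rosi3D. Separate cultures are not stated for the 2 libraries of a group, so p-values measure only the spread between these libraries, which may be technical.

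The libraries held between 10410233 and 18935287 counts over all peaks. Gene-end peaks are those within 1 kb of either end of a protein-coding gene, its start included, without regard to strand. Gene-end peaks of 9 adipocyte marker genes, all 9 of which had such a peak, summed to 341 to 382 CPM in control, 304 to 344 CPM with forskolin and 422 to 424 CPM with rosiglitazone. Those of the macrophage list summed to 31.5 to 34.1 CPM in control, 40.4 to 45.5 CPM with forskolin and 40.9 to 41.6 CPM with rosiglitazone. They came from 4 of the 8 listed genes, and Adgre1, Itgam, Ptprc and Tyrobp had no gene-end peak at all. Of the peaks assigned to genes of the macrophage, skeletal muscle and adipocyte marker lists, 0 of 22, 0 of 9 and 0 of 83 belonged to the selected set. Over all gene-assigned peaks the share was 1.91%, and these lists are too small for a count of 0 to stand apart from it. The FSK3D libraries differed most from each other: over all peaks the chi-square of their counts per degree of freedom was 3.50, against 2.25 to 2.40 in the other groups. Over the 2467 peaks it was 2.30 for FSK3D and 1.97 to 2.15 in the other groups.

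The genome sequence under most of these peaks was not at hand, and sequence could be read only where a peak overlapped a promoter window, the 250 bases before to 50 bases after an annotated start in RefSeq (GRCm38.p6). Of the 2467 peaks 32 overlapped 37 such windows, belonging to 32 genes, of which 7 were protein-coding. The letters of an AP-1 site, TGANTCA read on both strands, occurred in 13 of these 37 windows (35.1%), which 11 peaks overlapped. A window can reach beyond its peak, so the letters may lie outside it. They occurred in 7.81% of all 32851 windows and in 6.49% of the 14541 windows overlapped by any peak. The following stretches lie before the start and inside the peak, are written 5′ to 3′ on the gene's strand, and show the AP-1 letters in capitals. They were picked to show 4 windows with the letters and, with Kcnk10, 1 without.
Iqcf1: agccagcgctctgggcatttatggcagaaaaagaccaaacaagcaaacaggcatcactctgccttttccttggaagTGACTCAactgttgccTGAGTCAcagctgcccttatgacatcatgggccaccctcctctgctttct
Junos: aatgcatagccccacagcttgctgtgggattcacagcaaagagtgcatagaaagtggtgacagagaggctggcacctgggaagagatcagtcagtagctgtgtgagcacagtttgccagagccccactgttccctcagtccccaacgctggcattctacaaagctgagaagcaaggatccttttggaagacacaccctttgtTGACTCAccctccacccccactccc
Ttc41: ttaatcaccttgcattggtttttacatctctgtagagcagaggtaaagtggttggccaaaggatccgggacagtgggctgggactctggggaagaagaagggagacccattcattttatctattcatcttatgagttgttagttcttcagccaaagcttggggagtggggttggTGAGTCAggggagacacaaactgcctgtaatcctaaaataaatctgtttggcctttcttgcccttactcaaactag
Atp13a4: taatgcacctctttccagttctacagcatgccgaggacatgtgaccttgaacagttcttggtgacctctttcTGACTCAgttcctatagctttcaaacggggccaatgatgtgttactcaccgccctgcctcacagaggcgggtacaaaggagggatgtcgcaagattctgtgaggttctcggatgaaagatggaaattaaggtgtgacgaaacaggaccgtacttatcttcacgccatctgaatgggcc
Kcnk10: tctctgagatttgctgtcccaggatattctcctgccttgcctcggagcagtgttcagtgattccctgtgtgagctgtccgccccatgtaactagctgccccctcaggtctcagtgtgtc

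These stretches are chr9:106499825-106499966 on the + strand for Iqcf1, chr4:95094586-95094812 on the + strand for Junos and chr10:86712515-86712764 on the + strand for Ttc41. That of Atp13a4 is chr16:29544865-29545114 and that of Kcnk10 is chr12:98578214-98578332, both on the - strand. The Iqcf1 stretch held the AP-1 letters at 2 places, which begin 66 and 50 bases before the start. In the Junos stretch they begin 25 bases before it. Junos is an RNA transcribed antisense at the Jun locus, and the peak at its start, 42.7 kb from the Jun gene itself, read 5.48 and 5.82 CPM in S1 and S2 and 17.9 and 14.7 CPM at 4 hours. It read 12.2 and 13.5 CPM at 1 day, 14.4 and 9.52 CPM at 3 days, and 4.71 and 5.09 CPM with rosiglitazone. Every forskolin library thus lay above both controls, as the selection required. Each also lay above both rosiglitazone libraries, which the limits on the group means favour. The peak at the start of Kcnk10, which encodes a potassium leak channel, had no AP-1 letters in its stretch and read 1.92 and 1.07 CPM in control. Its forskolin libraries read 6.04, 7.08, 7.88, 8.24, 8.41 and 5.37 CPM in the order S3 to S8.

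Other motifs in the 37 windows were read in the same way, on both strands. The nuclear receptor motif AGGTCA occurred in 12 (32.4%, against 16.3% of all windows and 12.3% of those with a peak). The C/EBP letters TTNCNNAA occurred in 21 (56.8%, against 40.7% and 31.1%). The full cAMP response element TGACGTCA occurred in none, against 1.79% of all windows and 3.05% of those with a peak. Its shorter core TGACG occurred in 8 (21.6%, against 20.8% and 30.8%). Windows with peaks opened at 4 hours alone, 14 in number, held the AP-1 letters in 6 cases, and the 10 with peaks opened by both drugs in 4. The AP-1 letters were thus common in these other opened windows too; the peaks away from start sites were not read.

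The median lasting forskolin-only peak stood at 1.32 CPM in control, 5.09 CPM at 4 hours, 4.54 CPM at 1 day, 3.94 CPM at 3 days and 1.16 CPM with rosiglitazone. The median ratio to control was 3.35 at 4 hours, 2.91 at 1 day and 2.49 at 3 days, and 0.930 with rosiglitazone. Together the 2467 peaks took 0.491% and 0.464% of the counts in S1 and S2 and 1.84% and 1.68% in S3 and S4. They took 1.61% and 1.51% in S5 and S6, 1.45% and 1.20% in S7 and S8, and 0.439% and 0.415% in S9 and S10. The forskolin libraries therefore stood apart from the other 4. The selection itself sets them apart from the controls and, in the group means, from rosiglitazone. No value of a later forskolin group reached that of an earlier one. With rosiglitazone 1500 peaks (60.8%) lay below their control mean, a share that the limit on rosiglitazone raises. Among peaks chosen without S9, 49.2% lay below control in S9, against 41.9% of all peaks, and among those chosen without S10, 56.4% in S10, against 44.8%.

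**Figure D1:**
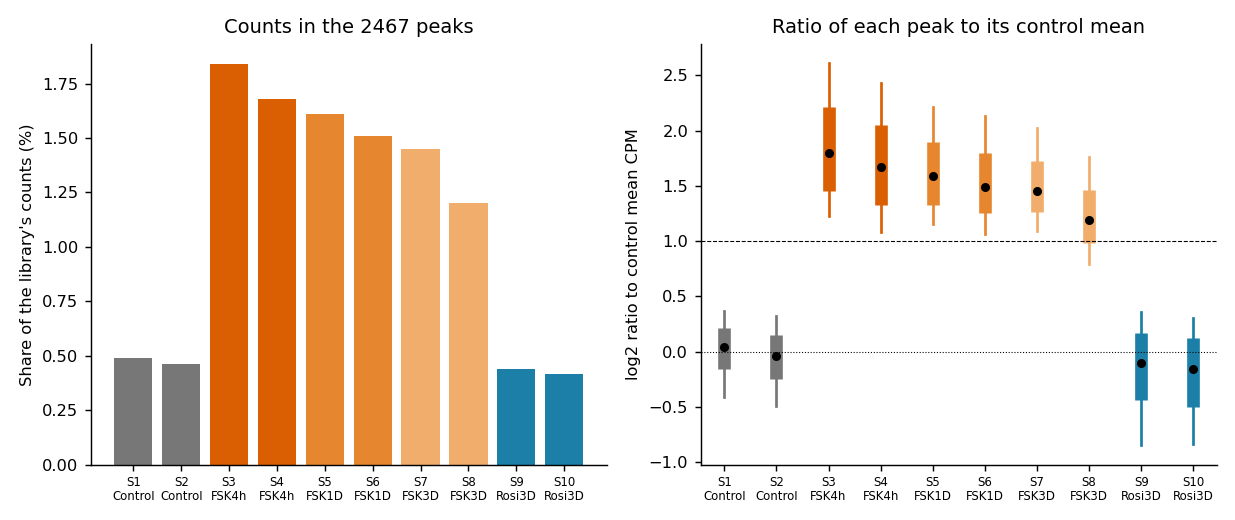
Share of each library's counts in the 2467 lasting forskolin-only peaks (left, %) and each peak's log2 ratio to its control mean (right; dot, median; thick bar, middle 50% of peaks; thin line, 10th to 90th percentile; dashed line, 2-fold). The share falls from 1.84% in S3 to 1.20% in S8, and S8 has the lowest median ratio of the forskolin libraries (2.28, against 2.74 in S7).

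How far the selection rested on single libraries was read by choosing peaks with 9 libraries and then looking at the library left out. Of 2297 peaks chosen without S3, S3 put 99.8% above both controls and 95.2% at 2 times control or more, a ratio that 17.0% of all peaks reached in S3. For S4, S5, S6 and S7 the share at 2 times or more was 90.1%, 93.8%, 90.7% and 88.0%. For S8 it was 54.5% of 3048 peaks, against 7.78% of all peaks, although 95.6% lay above both controls. Without S7 the rule found 1886 peaks, of which 1787 were among the 2467, and without S8 3048, of which 2340 were. The control libraries weighed more: without S2 the rule kept 1546 of the 2467 peaks and without S1 1625, although it then found 2097 and 2630 in all. Next came S7, without which it kept 1787, and without each of the remaining libraries it kept 2141 to 2382. The limit on rosiglitazone was met in the left-out S9 by 72.9% of 2640 peaks and in S10 by 80.3% of 2395, against 66.7% and 71.0% of all peaks. The wording forskolin-only thus holds for the group means, and less often for a single rosiglitazone library.

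Of 4781 peaks that met every forskolin criterion, 2467 (51.6%) met the limit on rosiglitazone. In 1672 (35.0%) the rosiglitazone mean was 1.25 to below 2 times control, and in 642 (13.4%) it was at least 2 times control. The selected set is therefore the part of a continuous range of rosiglitazone ratios that lies below the limit. At the edge of the 3-day limit, the peaks just inside lay at Slc39a14 (8.17 and 8.21 CPM at 3 days, against 2.88 and 5.06 CPM in control), Nav3 (1.66 and 2.53 against 1.54 and 0.306 CPM) and Cd80 (2.89 and 2.92 against 1.34 and 1.30 CPM). Just outside lay peaks near Ces1f (1.23 and 1.30 against 0.480 and 0.536 CPM), on chromosome 15 from 8911391 to 8911910 (2.46 and 1.53 against 1.06 and 0.689 CPM), and in Aff3 (2.46 and 1.38 against 1.06 and 0.613 CPM).

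Time was tested between forskolin groups with edgeR's quasi-likelihood test over the 118954 peaks that passed its filter on low counts, with Benjamini-Hochberg adjustment and a threshold of 0.05. All 2467 peaks passed that filter. The rule used no ratio between forskolin times, but it did use the values of all 3 of them: each mean had to be at least 2 times control, and the 4-hour mean at least 2 CPM. None of these contrasts is therefore free of the selection, and the counts below describe the selected peaks. From 4 hours to 3 days 540 of the 2467 peaks fell (21.9%) and 14 rose (0.567%), where 6.74% of all tested peaks fell and 4.38% rose. Of the 642 peaks opened by both drugs 17.0% fell over the same interval; the difference from the lasting forskolin-only peaks was not tested. From 4 hours to 1 day 233 fell (9.44%) and 20 rose (0.811%), against 2.99% and 2.58% of all tested peaks. From 1 day to 3 days 11 fell (0.446%) and none rose, against 0.0773% and 0.109% of all tested peaks. In edgeR 280 of the 2467 peaks were lower and 11 higher from 1 to 3 days at an unadjusted p under 0.05, where 6270 and 5722 of all 118954 tested peaks were. DESeq2 called none of the 2467 in either direction.

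The fall to 3 days was called in 275 peaks without S8 and in 235 without S3, where 3.24% and 2.61% of all peaks fell. The fall to 1 day was called in 59, 104, 78 and 52 peaks without S3, S4, S5 and S6. The fall from 1 to 3 days was called in none without S5 or S8, in 1 without S6 and in 52 without S7. Rises to 3 days numbered 5 or 6 without S3, S4 or S7, and rises to 1 day 3 to 7 without S3, S4, S5 or S6. DESeq2 called 293 falls and 3 rises from 4 hours to 3 days. S7 read higher than S8 in 1894 of the 2467 peaks, and the part of this difference in the falls to 3 days was not tested.

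In means, 1587 peaks (64.3%) were highest at 4 hours, 685 (27.8%) at 1 day and 195 (7.90%) at 3 days. At 3 days the median peak held 67.3% of its 4-hour gain over control (middle 50% of peaks, 48.9% to 90.9%), and at 1 day 83.2%. In 452 peaks the 3-day gain was as large as the 4-hour gain or larger. The 540 peaks that fell had a median width of 484 bp, and the 1913 without a call 395 bp. Their median ratios to control, 5.00 and 3.05 at 4 hours and 2.38 and 2.53 at 3 days, follow in part from the call and from the 2-fold limit at 3 days.

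**Figure D2:**
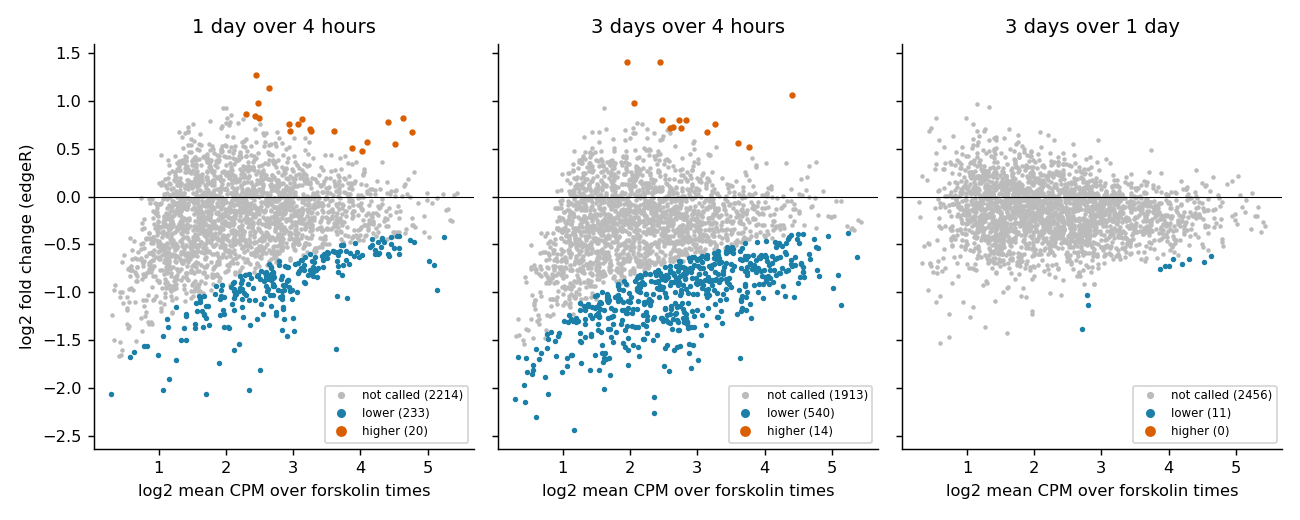
Log2 fold change between forskolin times (edgeR) of the 2467 lasting forskolin-only peaks against their log2 mean CPM over the 3 times, with called peaks in colour. Falls (540) far outnumber rises (14) from 4 hours to 3 days, and 11 peaks are called between 1 and 3 days.

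The highest 3-day ratio of all was at Slc25a15, which encodes a mitochondrial ornithine carrier. Its peak (chromosome 8, 22390843 to 22391462) lay in the gene body, 7.47 kb from a gene end, and read 1.73 and 0.536 CPM in control and 12.5 and 10.7 CPM at 4 hours. At 1 day it read 15.9 and 14.7 CPM, at 3 days 15.7 and 14.9 CPM, and with rosiglitazone 0.703 and 1.47 CPM. Its ratio to control was 8.55, 11.3 and 11.2 at the 3 times, and the difference between 4 hours and 3 days did not pass (log2 fold change 0.41, SE 0.180, edgeR adjusted p = 0.141). Next in ratio at 3 days stood peaks near Ino80c (10.6), a subunit gene of the INO80 chromatin remodeller, and Txndc5 (7.18), which encodes a protein disulfide isomerase. The others of the 10 highest lay at Arhgap18 (7.12), Tlr9 (6.81), Rasl11a (6.47), Trio (6.40), Ccdc91 (6.19), Irf2 (6.14) and Atp8b4 (5.98). Several of these ratios rest on few control counts and so depend on the 0.25 CPM added. Counts in S1 and S2 were 3 and 8 at Ino80c, 6 and 6 at Txndc5 and 4 and 1 at Arhgap18. They were 6 and 5 at Ccdc91 and 7 and 1 at Atp8b4, but 16 and 27 at Rasl11a.

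The peak at Tlr9, the receptor for unmethylated DNA, lay 0.66 kb from an end of the gene, strand not considered (chromosome 9, 106221602 to 106222275). It read 1.15 and 0.689 CPM in control, 9.03 and 7.20 CPM at 4 hours, 7.82 and 9.51 CPM at 1 day, and 8.84 and 6.60 CPM at 3 days. Ccr1 and Ccr7, both chemokine receptor genes, were picked after their values were seen. A peak over the start of Ccr1 read 0.384 and 0.383 CPM in control and 4.51 and 4.24 CPM at 4 hours. It then fell to 1.90 and 1.23 CPM at 3 days (log2 fold change -1.47, SE 0.390, edgeR adjusted p = 0.0069). Near Ccr7, a receptor that guides lymphocytes and dendritic cells, 3 peaks formed a run from 99127888 to 99142189 on chromosome 11. The macrophage marker list, fixed by name, held 0 of its 22 peaks in the set. Its summed gene-end signal given above was higher than in both controls in every forskolin library and in both rosiglitazone libraries. The part of that signal in these peaks was not tested.

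The largest number of lasting forskolin-only peaks at 1 gene was 6. Csgalnact1, an enzyme of chondroitin sulfate synthesis, had 6 among its 44 peaks and Pard3, a cell polarity gene, 6 among 66. Pde4d had 5 of 93, Hivep3 5 of 57, Slit3, a secreted guidance ligand, 5 of 73, and Fyn, a Src-family kinase, 5 of 43. Chst11 (a chondroitin sulfotransferase) had 4 of 54, Snx29 4 of 48, Auh 4 of 22 and Sdc1 4 of 17. They were named among the 22 genes with 4 or more by the summed 3-day level of these peaks. In all, 1973 of the 2467 peaks were assigned to 1605 genes, 9.38% of the 17116 protein-coding genes with a peak. Of these genes 1330 had 1 such peak, 212 had 2 and 63 had 3 or more.

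The strongest of the Sdc1 peaks (chromosome 12, 8826901 to 8827539) lay 33.5 kb from Sdc1, which encodes the proteoglycan syndecan 1. It read 3.84 and 4.67 CPM in control, 34.4 and 28.1 CPM at 4 hours, 26.1 and 25.2 CPM at 1 day, 20.5 and 19.3 CPM at 3 days, and 3.87 and 3.93 CPM with rosiglitazone. The 3 times did not overlap, and the fall from 4 hours to 3 days passed (log2 fold change -0.65, SE 0.134, edgeR adjusted p = 3.58e-04), though not without S3 (adjusted p = 0.0639). A peak near Mt2, a metallothionein gene (chromosome 8, 94171292 to 94171840, picked after its values were seen), read 3.84 and 4.98 CPM in control, 19.6 and 17.7 CPM at 4 hours, 18 and 18.4 CPM at 1 day, 17.9 and 13.3 CPM at 3 days, and 4.43 and 5.28 CPM with rosiglitazone.

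**Figure D3:**
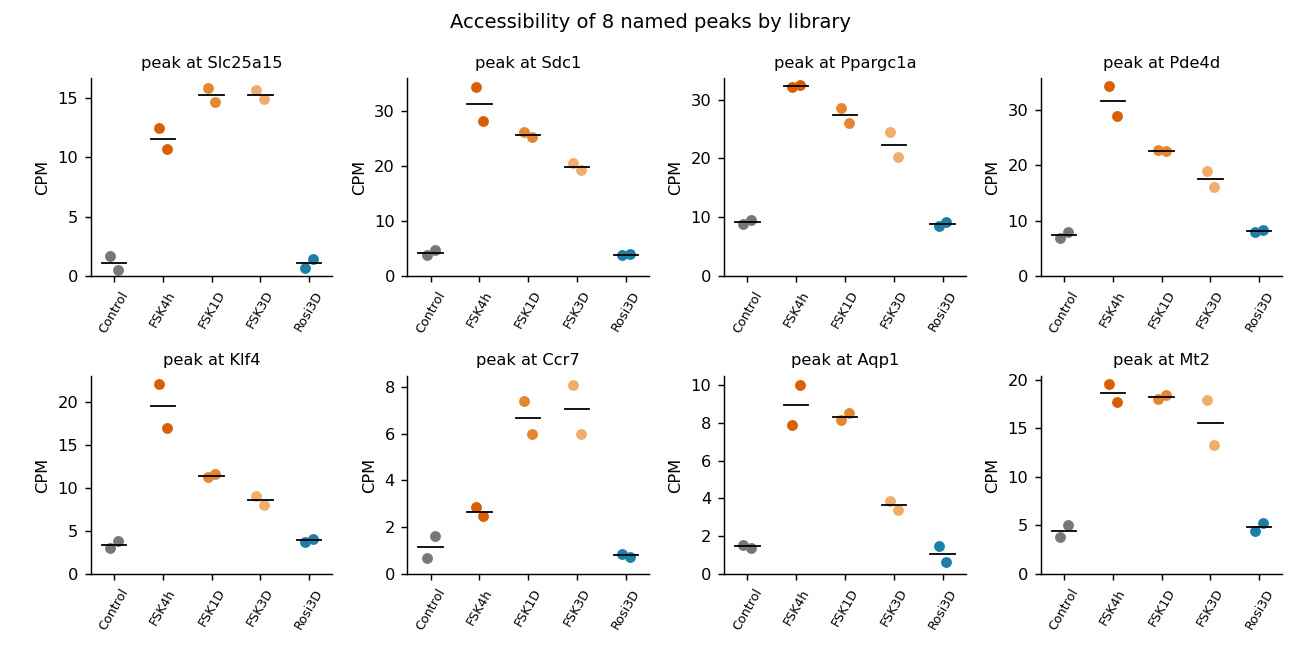
CPM of 8 named lasting forskolin-only peaks in each of the 10 libraries (dots) with group means (lines). All forskolin dots lie above both controls, as the selection required, while the Ccr7 peak climbs from 4 hours to 1 and 3 days and Klf4 and Aqp1 drop.

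Among genes of the cAMP response and its feedback, 16 of 443 peaks (3.61%) were lasting forskolin-only peaks, where 1.91% of all gene-assigned peaks were. They lay at 5 of the 27 genes: 5 at Pde4d, 4 at Pde4b and 4 at Pde10a, which encode phosphodiesterases, 2 at Ppargc1a, a coactivator gene of the thermogenic program, and 1 at Akap12, which encodes a scaffold for protein kinase A. None lay at Crem, Nr4a1, Nr4a2, Nr4a3, Per1, Fos, Junb, Sik1, Dusp1 or the other 13 listed genes. The share of the list thus rests on few genes, and its difference from 1.91% was not tested. From 4 hours to 3 days 5 of the 16 fell and none rose (median log2 fold change -0.49), where 21.9% of all 2467 selected peaks fell and their median was -0.37; over all tested peaks it was -0.01. From 1 to 3 days none passed.

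The strongest Pde4d peak (chromosome 13, 109881130 to 109881797, in the gene body) read 6.82 and 7.89 CPM in control, 34.3 and 28.9 CPM at 4 hours, 22.8 and 22.5 CPM at 1 day and 19.0 and 16.0 CPM at 3 days. Rosiglitazone left it at 7.95 and 8.28 CPM. It fell from 4 hours to 1 day (log2 fold change -0.54, edgeR adjusted p = 0.00534) and to 3 days (-0.85, SE 0.135, adjusted p = 3.98e-06), where it was still 2.34 times control. Of the other 4 Pde4d peaks, the one starting at 109333989 also fell to 3 days (-1.67, adjusted p = 0.00865), a call that ended without S3 or S8. Pde4d had 14 peaks that met every forskolin criterion, and in 9 of them rosiglitazone exceeded the limit.

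The 4 Pde4b peaks did not move alike. One in the gene body (chromosome 4, 102521065 to 102521665) read 7.77 and 5.08 CPM at 4 hours but 1.59 and 1.58 CPM at 1 day and 2.03 and 1.46 CPM at 3 days, against 0.768 and 0.536 CPM in control. It fell by 1.86 on the log2 scale to 3 days (SE 0.340, edgeR adjusted p = 5.21e-05). The peak at an end of the gene (102607878 to 102608372) behaved similarly, at 5.44 and 2.66 CPM at 4 hours and 0.921 and 1.46 CPM at 3 days. Its fall passed too (-1.77, edgeR adjusted p = 0.00443), although without S3 or S7 this call ended. Another peak (102555500 to 102555887) instead read 6.24 and 5.99 CPM at 4 hours, 8.12 and 7.45 CPM at 1 day and 8.72 and 7.90 CPM at 3 days. That difference did not pass (0.44, SE 0.236, adjusted p = 0.238), so within 1 gene peaks at 2.21 and at 5.65 times control at 3 days stood side by side.

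At Ppargc1a the stronger of 2 peaks (chromosome 5, 51867963 to 51868802) lay in the gene body, 247 kb from a gene end. It read 8.93 and 9.57 CPM in control, 32.2 and 32.4 CPM at 4 hours, 28.6 and 26.0 CPM at 1 day, 24.5 and 20.2 CPM at 3 days, and 8.58 and 9.27 CPM with rosiglitazone. The fall from 4 hours to 3 days passed (log2 fold change -0.53, SE 0.128, edgeR adjusted p = 0.00276) under all 15 alternatives. The other thermogenic genes with a lasting forskolin-only peak were Letmd1, which encodes a mitochondrial protein, and Tmem26, a marker of beige adipocytes. The list counted 4 of 255 peaks (1.57%) at 3 of 24 genes. The only Ucp1 peak that met every forskolin criterion (chromosome 8, 83287735 to 83288017) was left out by the rosiglitazone limit. It read 0.480 and 0.919 CPM in control, 2.84 to 3.52 CPM over the 6 forskolin libraries, and 4.43 and 2.88 CPM with rosiglitazone.

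Of the cAMP signalling machinery, 5 of 339 peaks (1.47%) belonged to the set, at the adenylyl cyclase genes Adcy3, Adcy8 and Adcy9, at Prkar2b, a regulatory subunit of protein kinase A, and at Rapgef3, the cAMP-activated exchange factor Epac1. None passed between forskolin times. None of the 8 peaks of Adrb3, the β3-adrenergic receptor gene, was 2-fold above control at 4 hours. The Rapgef3 peak, by an end of the gene (chromosome 15, 97743320 to 97744190), read 3.07 and 1.23 CPM in control and 9.56, 9.38, 8.53, 6.97, 7.74 and 6.91 CPM in S3 to S8.

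Lipolysis and lipid droplet genes had 3 of 204 peaks (1.47%), at Abhd5, the coactivator of adipose triglyceride lipase, and at Hilpda, an inhibitor of that lipase. All 3 fell from 4 hours to 3 days, where 21.9% of the 2467 peaks and 6.74% of all tested peaks did. The Hilpda peak with the highest 3-day level (chromosome 6, 29246546 to 29247458) read 7.30 and 8.20 CPM in control, 30.4 and 27.4 CPM at 4 hours, 23.3 and 22.9 CPM at 1 day and 18.8 and 16.8 CPM at 3 days (log2 fold change from 4 hours -0.70, SE 0.135, edgeR adjusted p = 1.44e-04). The Abhd5 peak went from 4.78 and 4.12 CPM at 4 hours to 1.41 and 2.38 CPM at 3 days, against 0.192 and 0.306 CPM in control. Its call (-1.24, adjusted p = 0.0256) ended with DESeq2 and without S3, S4 or S7. PPAR target genes had 1 of 152 peaks (0.658%, against 1.91% of all gene-assigned peaks), near Acadm, which encodes a dehydrogenase of fatty acid oxidation. The selection removed peaks raised by rosiglitazone, a PPARγ agonist, and the list is too small for this count to stand apart. No peak of Adipoq, Fabp4 or Pparg met the forskolin criteria at all 3 times.

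Adipogenic transcription factor genes had 7 of 386 peaks (1.81%), at Cebpb, Nfia (2 each), Klf4, Klf9 and Ebf1, of which 3 fell to 3 days. Klf4, an early factor of adipogenesis, had a peak 9.06 kb away (chromosome 4, 55541093 to 55541971). It read 2.98 and 3.83 CPM in control, 22.1 and 17.0 CPM at 4 hours, 11.3 and 11.6 CPM at 1 day and 9.09 and 8.06 CPM at 3 days, without overlap between the times. Its fall to 1 day (log2 fold change -0.82, edgeR adjusted p = 5.28e-04) and to 3 days (-1.18, SE 0.173, adjusted p = 6.19e-07) both passed. Of the MiT/TFE genes Mitf had 1 peak of 53 (1.89%), which read 0.576 and 1.30 CPM in control, 4.98 and 3.63 CPM at 4 hours, and 2.89 and 2.76 CPM at 3 days. Clock and ROR genes had 7 of 237 (2.95%), at Per3, Cry2, Rora, Rorb, Nfil3 and Bhlhe40 (2), and 3 fell to 3 days. Among these Nfil3, a repressor of the clock output, went from 13.9 and 13.1 CPM at 4 hours to 6.63 and 7.14 CPM at 3 days (-0.97, adjusted p = 2.31e-04), against 2.40 and 2.22 CPM in control. In all, 42 lasting forskolin-only peaks lay at 27 genes of the 8 lists, of which 14 fell and none rose from 4 hours to 3 days.

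Progenitor marker genes held 4 of their 99 peaks (4.04%) in the set, against 1.91% of all gene-assigned peaks, at Pdgfra, Dcn (2) and Col3a1, which encode a growth factor receptor, decorin and a collagen chain. The Col3a1 peak lay 35.3 kb away and read 0.192 and 0.536 CPM in control and 3.72, 2.54, 4.12, 3.64, 3.68 and 2.99 CPM in S3 to S8. The Pdgfra peak rested on 6 and 0 counts in S1 and S2 and on 57 and 12 in S7 and S8. Of the endothelial list Pecam1 and Cdh5 had 1 peak each, of 48 (4.17%, against the same 1.91%), while neither had a gene-end peak. Both lists are too small for these counts to stand apart from 1.91%, and the differences were not tested. Gene-end peaks of the progenitor list, at 8 of its 11 genes, summed to 112 to 114 CPM in control and 108 to 129 CPM with forskolin.

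Rises from 4 hours to 3 days were called in 14 peaks. One was the middle peak of the Ccr7 run (chromosome 11, 99132157 to 99132657), which read 0.672 and 1.61 CPM in control, 2.85 and 2.48 CPM at 4 hours, 7.41 and 5.97 CPM at 1 day, 8.10 and 5.99 CPM at 3 days, and 0.844 and 0.736 CPM with rosiglitazone. Both later times lay above 4 hours without overlap, and the rise to 3 days passed (log2 fold change 1.40, SE 0.276, edgeR adjusted p = 1.73e-04), while the other 2 peaks of the run did not pass (-0.57 and -0.30, adjusted p = 0.109 and 0.184). Other called rises lay at Fam160a1, Gosr2, Trrap, Cntnap2, Glod4, Snx29, Gng12, Arel1, Prkce and Epb41l3, and 2 were over 100 kb from any gene. None of the 14 lay at a gene end.

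Falls from 1 day to 3 days were called in 11 peaks, all of which the selection held at 2 times control or more at both times. Aqp1, a water channel gene, had 1 of them in its body, 1.47 kb from a gene end (chromosome 6, 55337624 to 55337913). It read 1.54 and 1.38 CPM in control, 7.90 and 10.0 CPM at 4 hours, 8.12 and 8.50 CPM at 1 day and 3.87 and 3.38 CPM at 3 days. The log2 fold change from 1 to 3 days was -1.14 (SE 0.245, edgeR adjusted p = 0.0167). The largest fall lay on chromosome 5 from 53409678 to 53410100, 131 kb from the nearest gene end (-1.38, adjusted p = 0.00312). A second fall lay nearby, starting at 53402505 (-0.73, adjusted p = 0.0266). The rest were at Pard3, Slit3, Gipc2, Klc1, Nfatc2, Mthfd1l and Rnf24, and on chromosome 2 from 108827317 to 108828375, 264 kb from a gene end. Of the 11, 8 were also lower at 3 days than at 4 hours.

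By position, 77 of the 2467 peaks (3.12%) lay within 1 kb of either end of a protein-coding gene, against 13.2% of all peaks. Gene bodies held 45.2%, against 45.0% of all peaks. Outside genes, 38.9% lay within 100 kb of a gene, against 32.0%, and 12.8% farther away, against 9.78%. Peaks opened at 4 hours and no longer at 3 days had a gene-end share of 4.00%, and those opened by forskolin and by rosiglitazone 3.43%, so a low gene-end share was common to all 3 opened sets. The median width was 413 bp, against 358 bp over all peaks, while 1.01% were 1 kb or wider, against 6.46%. Wide peaks were as scarce among those opened at 4 hours only (1.02%, median width 336 bp) and by both drugs (1.09%, 363 bp). Per chromosome the share of peaks in the set ran from 1.28% (X) and 1.45% (7) to 2.36% (3) and 2.37% (16); none of the 75 peaks on Y belonged to it.

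**Figure D4:**
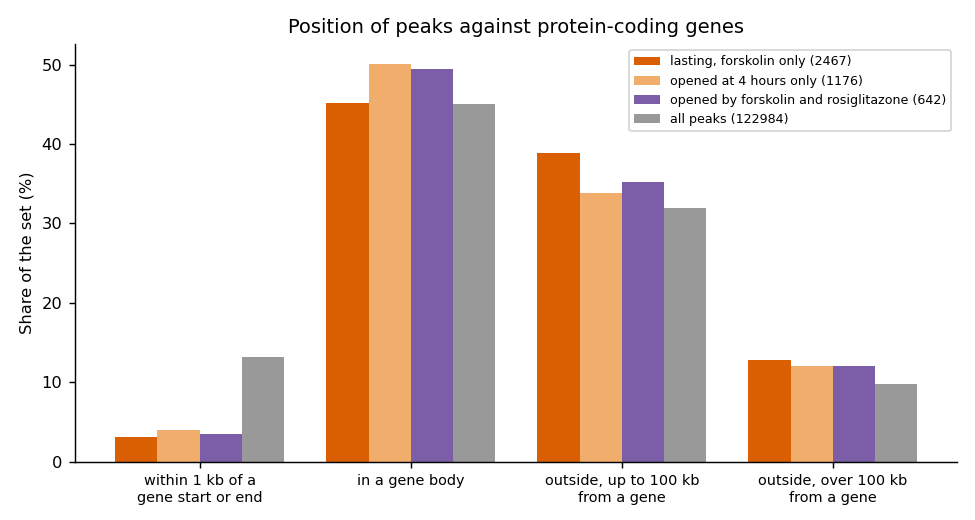
Position against protein-coding genes (share of each set, %) of the lasting forskolin-only peaks, peaks opened at 4 hours only, peaks opened by forskolin and rosiglitazone, and all peaks. Gene-end shares are 3.12%, 4.00% and 3.43% in the opened sets and 13.2% over all peaks.

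Lasting forskolin-only peaks were mostly solitary, with a median of 166 kb to the next, yet 235 (9.53%) had another centre within 10 kb. Runs of 3 or more, with steps of at most 10 kb, occurred 8 times. One lay by Fosl2, which encodes an AP-1 subunit, on chromosome 5 from 32159641 to 32164460. Its 3 peaks read 0.0961 to 2.07 CPM in control and 2.30 to 5.44 CPM over the forskolin libraries. Within each of the 3 the selection itself required that these values not overlap. Other runs lay by Ccr7, Tgfbi (a matrix protein gene), Slc39a14 (a zinc and iron transporter gene) and Rdh10 with Stau2, and 3 had no assigned gene. The longest held 4 peaks, on chromosome 17 from 45787506 to 45799433, the strongest of which read 5.09 and 2.83 CPM in control, 27.1 and 25.6 CPM at 4 hours, and 18.9 and 12.0 CPM at 3 days.

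Peaks around the set, which the rule did not choose, were tested against control. Within 10 kb of a lasting forskolin-only peak lay 4410 other tested peaks. Of these 26.2% were higher and 9.32% lower at 4 hours, against 18.5% and 12.9% of all tested peaks. At 1 day 20.1% were higher and 5.85% lower, against 12.9% and 9.84%, and at 3 days 14.1% and 3.24%, against 8.49% and 5.34%. With rosiglitazone 2.68% were higher and 4.44% lower, against 3.22% and 3.34%. All 4 comparisons share the same 2 control libraries.

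The share called higher fell with distance. At 3 days it was 17.0% within 5 kb, 11.4% at 5 to 10 kb, 8.53% at 10 to 50 kb and 6.21% beyond 50 kb, and at 4 hours 30.4%, 22.3%, 20.1% and 15.9%. Counting only peaks away from gene ends, it was 14.6% within 10 kb and 6.91% beyond 50 kb at 3 days. Among the neighbours within 10 kb, 178 met every forskolin criterion and had been kept out of the set by rosiglitazone alone. Nearby opening with rosiglitazone showed no such slope, at 2.66%, 2.69%, 3.45% and 3.30% in the same 4 classes. The share called lower with rosiglitazone was 4.36%, 4.52%, 3.79% and 3.19%. The set was chosen in these same libraries to open with forskolin and not with rosiglitazone, which favours such a contrast around it. Neighbours called higher at 3 days numbered 620, and 338 without S7, 340 without S2 and 411 without S1, where 4.31%, 4.65% and 5.61% of all peaks were higher. At 1 day they numbered 515 without S2 and 577 without S5, and with rosiglitazone 49 without S9, 56 without S1 and 67 without S10. The lower neighbours went from 411 to 239 and 255 at 4 hours without S2 and S3, and from 143 to 70 and 94 at 3 days without S2 and S1. At 1 day they went from 258 to 115, 113 and 162 without S2, S5 and S6, and with rosiglitazone from 196 to 76, 91, 100 and 101 without S9, S10, S1 and S2.

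**Figure D5:**
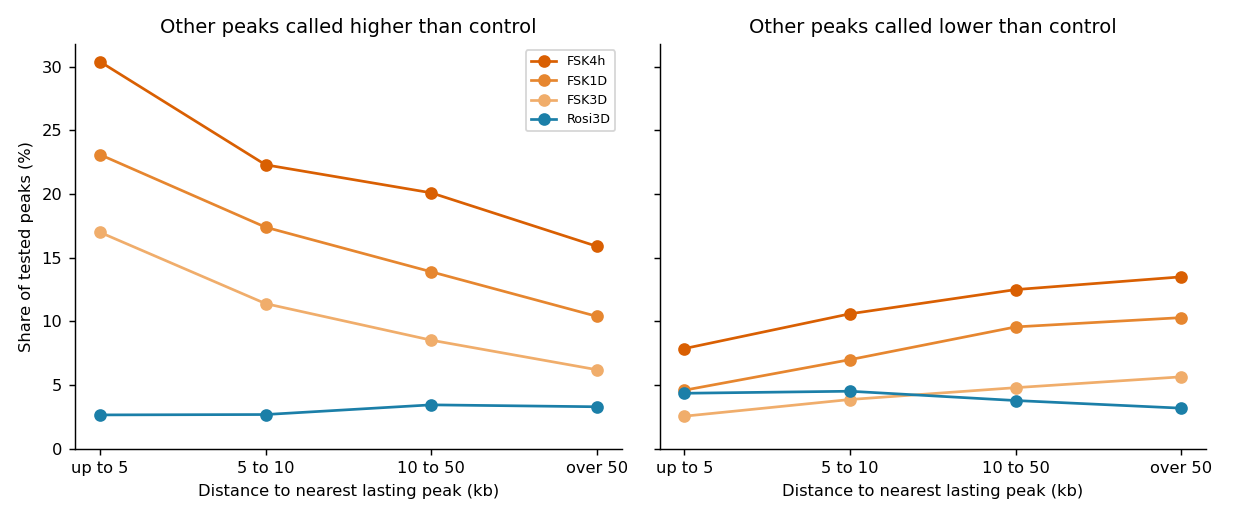
Share of tested peaks outside the set that edgeR called higher (left) or lower (right) than control, by distance to the nearest lasting forskolin-only peak, for each treatment. For forskolin at 3 days the higher share goes from 17.0% within 5 kb to 6.21% beyond 50 kb, while the rosiglitazone line stays between 2.66% and 3.45%. The choice of the set in the same libraries favours this contrast.

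The ends of the genes that held these peaks were tested against control in the same way. Of 1602 tested gene-end peaks at 1221 of the 1605 genes, leaving out the selected peaks themselves, 106 (6.62%) were higher and 380 (23.7%) lower at 4 hours. Over all gene-end peaks the shares were 5.57% and 23.1%. At 1 day 76 (4.74%) were higher and 447 (27.9%) lower, against 3.81% and 28.6%, and at 3 days 63 (3.93%) and 85 (5.31%), against 2.70% and 6.96%. With rosiglitazone 17 (1.06%) were higher and 90 (5.62%) lower, against 1.54% and 3.71%. The lower shares at 4 hours and 1 day are near those of gene-end peaks at large. The higher shares were above theirs at each forskolin time, as was the lower share with rosiglitazone. Gene-end peaks at large include the 77 selected peaks at gene ends, and these differences were not tested. The lower counts depended on scaling and on single libraries: with library size alone they were 230, 247 and 43 at the 3 forskolin times. At 4 hours they were 90 without S3 and 108 without S2, at 1 day 123 without S5 and 154 without S2, and at 3 days 20 without S2, 27 without S7, 43 without S1, 49 without S9 and 344 without S8. At 4 hours the count was also 209 without S4. With rosiglitazone it was 8 without S9, 12 without S2, 41 without S1, 190 without S7 and 192 without S8. The higher counts went at 1 day to 38 without S2 and 43 without S5, at 3 days to 31 without S2, 36 without S7 and 41 without S1, and with rosiglitazone to 7 without S10 and 11 without S2.

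Among these gene-end peaks the smallest adjusted p at 3 days was at Ddit4, which encodes an inhibitor of mTORC1 and had 3 lasting forskolin-only peaks. This gene-end peak (chromosome 10, 59948542 to 59948881) read 1.54 and 1.99 CPM in control, 11.4 and 9.69 CPM at 4 hours, 11.4 and 14.4 CPM at 1 day, 9.58 and 9.06 CPM at 3 days, and 3.59 and 4.36 CPM with rosiglitazone. It was above control at 3 days (log2 fold change 2.28, edgeR adjusted p = 2.11e-10), while its rosiglitazone ratio of 2.10 had kept it out of the set. Gene-end peaks of Txndc2 (1.59) and Slc1a7 (2.11) were higher too. Those of Tmem182 (-1.79) and of Hip1r (-2.01), a clathrin adaptor gene, were lower, so a lasting open region and a gene end that closed occurred at the same gene. The Hip1r gene-end peak read 6.44 and 7.43 CPM in control, 0.730 and 1.57 CPM at 4 hours, and 2.33 and 1.30 CPM at 3 days.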

How the data were processed

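ATAC-seq of 10 libraries was read from 1 table of counts per peak, which the authors deposited as whole numbers without normalization. Per the submitters' processing notes, Bowtie2, MACS2, featureCounts, fastp, Picard, SAMtools and deepTools were used, and the builds named are GRCm38 and mm10; versions are not given in the sources used here. No value column lay outside the series (0 columns). The columns name the group of a library, and not its labelled replicate.

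CPM, group means and ratios (0.25 CPM added) were computed from these counts. The test on the counts came from edgeR 4.0.16 under R 4.3.3 (TMM scaling, filterByExpr, robust quasi-likelihood fit of all 10 libraries, Benjamini-Hochberg adjustment over 118954 peaks, threshold 0.05), after a check on simulated data. DESeq2 1.42.0, other scalings, filters and distances, and leaving out each library were the alternatives. Peaks were assigned to protein-coding genes within 50 kb by RefSeq bounds (GRCm38.p6), without strand. A gene end is within 1 kb of either bound, and promoter windows run from 250 bases before to 50 after a start. Named genes were taken by rank of 3-day ratio, number of selected peaks per gene, highest 3-day level per gene of each list, size of the called change from 1 to 3 days, smallest adjusted p of gene-end peaks, and nearness to the 3-day limit; others were picked with their values in view. Some results are not reported here. The peaks and lists were chosen with earlier results of these data known.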

Additional observations from a re-analysis of the deposited data

Results flagged for a closer look

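Of the lasting forskolin-only peaks named by size of fall, at most 1 per gene, 5 differed between 1 and 3 days of forskolin by edgeR's test of that difference. The log2 fold change from 1 to 3 days was -1.14 at Aqp1, -1.03 at Pard3, -0.73 at Slit3, -0.70 at Gipc2 and -0.68 at Klc1 (adjusted p = 0.0167, 0.0449, 0.0221, 0.0294 and 0.0137). Each kept its direction under the 15 alternatives run. Each call ended with DESeq2 and without S5, S6 or S8. That of Pard3 also ended with DESeq2's size factors and without S3 or S4, and that of Gipc2 in a fit of only the 2 groups compared. The selection of these peaks used the values of both groups.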

How the results depend on the processing

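No paired analysis was possible because the count columns carry running numbers from S1 to S10 and not the labelled replicate numbers. Motif searches in windows around peak centres were not run, since no genome sequence was used here. Of 26 named calls, all 26 kept their direction and 14 were called under every alternative. The cause of the changes below was not tested.

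The selection gave 1281 peaks with 1 CPM added, 6563 at 1.5-fold, 445 at 3-fold, 1547 with at least 4 CPM at 4 hours, 1500 with rosiglitazone at or below control, and 1886 to 3048 when a library was left out. Between forskolin times DESeq2 called 5 higher and 76 lower (1 day against 4 hours), 3 and 293 (3 days against 4 hours) and 0 lower (3 days against 1 day). Fits of only the 2 groups gave 43 higher and 400 lower at 1 day against 4 hours and 7 lower at 3 days against 1 day. Leaving out a library gave 3 to 25 higher and 52 to 269 lower, 5 to 15 and 235 to 572, and 0 to 1 and 0 to 52 in the same order.

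Among gene-end peaks against control, a limit of 500 bp gave 60, 40, 37 and 9 higher at 4 hours, 1 day, 3 days and with rosiglitazone. Library size alone gave 230, 247, 43 and 55 lower in that order, and 125 higher at 1 day and 37 with rosiglitazone. DESeq2 gave 42 higher at 1 day, 34 at 3 days and 7 with rosiglitazone, and 35 lower with rosiglitazone. Fits of only 2 groups gave 37 lower at 3 days and 172 with rosiglitazone. Leaving out a library gave higher counts of 72 to 119, 38 to 85, 31 to 68 and 7 to 24, and lower counts of 90 to 489, 123 to 550, 20 to 344 and 8 to 192, at 4 hours, 1 day, 3 days and with rosiglitazone. The gene-end share was 1.42% within 500 bp and 6.0% within 2 kb, where all peaks had 10.7% and 17.2%.

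Neighbours within 5 kb gave 641, 487, 358 and 56 higher and 166, 97, 54 and 92 lower in that order, and within 50 kb 4097, 2922, 1868 and 623 higher and 2239, 1659, 845 and 751 lower. DESeq2 gave 583 higher at 1 day, 365 at 3 days and 47 with rosiglitazone, and 85 lower at 3 days and 101 with rosiglitazone. Library size alone gave 140 lower at 1 day, 86 at 3 days and 128 with rosiglitazone, and 184 higher with rosiglitazone. Leaving out a library gave 788 to 1190, 515 to 924, 338 to 637 and 49 to 143 higher and 239 to 456, 113 to 294, 70 to 152 and 76 to 237 lower. With 2 libraries a group, peaks of low count could change without a call.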
